A study of Drosophila melanogaster with 2 samples.

Results

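Strong single-gene promoter summits are the places where the chromatin immunoprecipitation (ChIP) of Scr-eGFP gave a high peak close to the start of a single protein-coding gene. They were chosen from the authors' list of thresholded peaks made from both replicates. An entry was kept when it lay on a chromosome arm, when its summit (the deposited position of greatest enrichment in the peak) was within 500 bp of a transcription start site (TSS) of exactly 1 protein-coding gene, and when its deposited signal was 200 or more. This rule gave 1040 summits, at 997 genes, of 5720 summits on the arms. Of the 2822 summits at promoters of 1 gene, the 1040 at or above the threshold made up 36.9%, and of all 5720 summits 37.9% had a signal that high. These shares follow from the rule and are given only to place the set. The 1782 single-gene summits under the threshold are called weak below, and 1673 further summits lay within 500 bp of the TSSs of 2 genes.

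The study has 1 group, Scr-eGFP embryos, with 2 biological replicates and no other condition. Whole Drosophila melanogaster embryos of strain Scr-GFP were collected at 0 to 24 h of age, so every stage of embryogenesis and every tissue was pooled, including cells that do not make Scr. The source label describes an insertion aimed at Scr itself. Sonication gave fragments of 200 to 800 bp, and the chromatin was precipitated with an antibody to GFP, per the labels, whose antibody field nevertheless names Scr. No library from embryos without the fusion protein was analysed here, and whether the same summits are recovered without it was not tested. Nothing in the labels says whether the replicates came from separate embryo collections beyond calling them biological.

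Scr, Sex combs reduced, is the Hox protein of the labial and first thoracic segments and of the salivary glands. Hox proteins are homeodomain factors that bind short A/T-rich sites, often together with Extradenticle (Exd) and Homothorax (Hth). Promoters of broadly expressed Drosophila genes are known for another set of sequences. BEAF-32, an insulator protein, binds clustered copies of CGATA. DREF, a zinc finger factor of proliferation and housekeeping genes, binds TATCGATA, which contains CGATA on both strands, so every DREF site counted here is also a BEAF-32 site. M1BP binds GGTCACAC at housekeeping promoters that include many ribosomal protein genes, and the E-box CAGCTG belongs to the same class of core promoter motifs. GAGA factor binds GAGAGAG and related repeats at developmental and heat shock promoters with paused RNA polymerase II.

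Most of the differences described below lie in the sequence at the summit, so 12 windows of 101 bases centred on a summit are printed, read 5′ to 3′ on the strand of the gene. They are the strongest summits with each of 4 sites on the arms taken for printing, leaving out windows with more than 30 bases of annotated UTR; that limit passed over 5 stronger windows. Bases come from the RefSeq release 6 genome, and capitals mark each copy of CGATA, which reads TATCG on the other strand, and of the 4 sites for which windows are shown, so GGTCACAC can also read GTGTGACC and GAGAGAG can read CTCTCTC. The first 3 hold the DREF site. They belong to Hsp110, a chaperone co-factor of the Hsp70 machinery (chr3L:14036916-14037016, + strand), Pep, an RNA-binding zinc finger protein of active puffs (chr3L:17645061-17645161, - strand), and Nrg, the cell adhesion protein Neuroglian (chrX:8517206-8517306, + strand).
Hsp110: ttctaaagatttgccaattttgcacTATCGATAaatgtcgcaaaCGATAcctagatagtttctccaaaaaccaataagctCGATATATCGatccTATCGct
Pep: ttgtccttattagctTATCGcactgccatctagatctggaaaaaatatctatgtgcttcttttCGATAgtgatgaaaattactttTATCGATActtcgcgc
Nrg: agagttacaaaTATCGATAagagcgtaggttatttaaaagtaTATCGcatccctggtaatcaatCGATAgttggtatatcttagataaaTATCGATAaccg
Hsp110 carried 5 copies of CGATA that do not overlap each other, Pep 3 and Nrg 4, and the DREF site supplied only some of them.

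The next 3 windows hold the M1BP site, in Top1, DNA topoisomerase I (chrX:15319370-15319470, + strand), vib, a phosphatidylinositol transfer protein (chr3R:19226626-19226726, - strand), and jar, myosin VI (chr3R:24271297-24271397, - strand). M1BP sites at strong summits came almost always with CGATA, which 80.3% of all strong windows held.
Top1: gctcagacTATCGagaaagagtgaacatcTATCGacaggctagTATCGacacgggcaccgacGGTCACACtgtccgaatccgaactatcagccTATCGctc
vib: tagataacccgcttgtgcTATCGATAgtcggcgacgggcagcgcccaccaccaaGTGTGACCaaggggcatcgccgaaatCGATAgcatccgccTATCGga
jar: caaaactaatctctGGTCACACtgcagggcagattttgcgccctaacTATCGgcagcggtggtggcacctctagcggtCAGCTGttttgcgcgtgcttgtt
Top1 held 4 copies of CGATA beside its M1BP site, vib 3 and jar 1, and the jar window also held the E-box, on the far side of CGATA from the M1BP site.

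The E-box windows belong to Snx27, a sorting nexin (chrX:5738023-5738123, - strand), TTLL4A, a tubulin ligase family member (chr2L:10989312-10989412, + strand), and CG5510 (chr3R:24169535-24169635, - strand).
Snx27: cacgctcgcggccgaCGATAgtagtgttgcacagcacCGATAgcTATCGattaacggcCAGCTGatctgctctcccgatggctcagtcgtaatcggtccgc
TTLL4A: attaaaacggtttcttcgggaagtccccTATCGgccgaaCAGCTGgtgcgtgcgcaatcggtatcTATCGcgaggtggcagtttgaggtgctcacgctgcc
CG5510: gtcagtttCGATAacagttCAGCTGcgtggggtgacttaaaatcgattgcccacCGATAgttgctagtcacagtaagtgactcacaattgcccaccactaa
These windows again held 3, 2 and 2 copies of CGATA in that order.

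The last windows hold the GAGA site, which was rare at these summits. They belong to mnb, the DYRK family kinase Minibrain (chrX:17887271-17887371, - strand), kug, the cadherin Kugelei (chr3L:20006328-20006428, + strand), and CG8745 (chr3L:13866940-13867040, - strand).
mnb: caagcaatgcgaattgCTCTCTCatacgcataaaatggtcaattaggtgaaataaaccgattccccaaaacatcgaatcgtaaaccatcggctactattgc
kug: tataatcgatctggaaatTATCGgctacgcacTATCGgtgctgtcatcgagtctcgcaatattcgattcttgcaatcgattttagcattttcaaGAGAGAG
CG8745: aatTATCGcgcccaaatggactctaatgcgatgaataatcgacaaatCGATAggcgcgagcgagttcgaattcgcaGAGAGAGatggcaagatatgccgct
The mnb window was the only one of the 12 printed with no CGATA, and 11 held at least 1 copy. The windows were chosen by their sites, and those with the DREF site hold CGATA by definition. This count is therefore no measure of the set.

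Both replicates gave these peaks. Of the 1040 strong single-gene summits, 1033 (99.3%, 95% Wilson interval 98.6 to 99.7%) overlapped a peak in the thresholded lists of both replicates, against 64.6% of all 5720 summits and 783 of the 1782 weak single-gene summits (43.9%, 41.7 to 46.3%). None of the 1040 was in neither list, which allows a share of up to 0.368%, whereas 372 weak summits (20.9%) were in neither. The replicates' lists come from the same alignments as the list that chose the summits, so this is not independent of the choice.

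The deposited signal of a summit is the authors' value; neither the labels nor the file notes say how it was scaled to depth or to the control. In practice it was close to the sum of the replicates' values: the ratio of the series-level signal to that sum had a median of 1.00 over the 1033 summits in both lists. The series-level signal of the strong summits had a median of 465 (95% interval 448 to 488) and ran from 200.5 to 3340. Their median signal was 247 (230 to 256) in replicate 1 and 226 (216 to 236) in replicate 2. Replicate 1 was the higher of the pair at 713 of the 1033 (69.0%), and 1024 (99.1%) had values within 2-fold of each other. The log2 ratio of replicate 1 to replicate 2 had a median of 0.15 and an SD of 0.33 over the summits. Across these 1033 summits the log2 signals of the replicates had a Pearson r of 0.93 and the signals a Spearman rank correlation of 0.92, given as a description, since the points share the 2 libraries and the lower end was cut by the rule. For the 783 weak summits in both lists the SD of the log2 ratio was 1.27 and r was 0.27. At some of them the overlapping entry of a replicate was that of a stronger neighbour: the ratio of the series-level signal to the sum of the replicates had a lower quartile of 0.345, and the highest weak value in replicate 1 was 1117. These weak values therefore do not show how well weak peaks themselves repeat. The replicates placed the summit itself a median of 10 bp apart at strong summits (9 to 11) and 32 bp apart at weak ones (28 to 36).

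**Figure D1:**
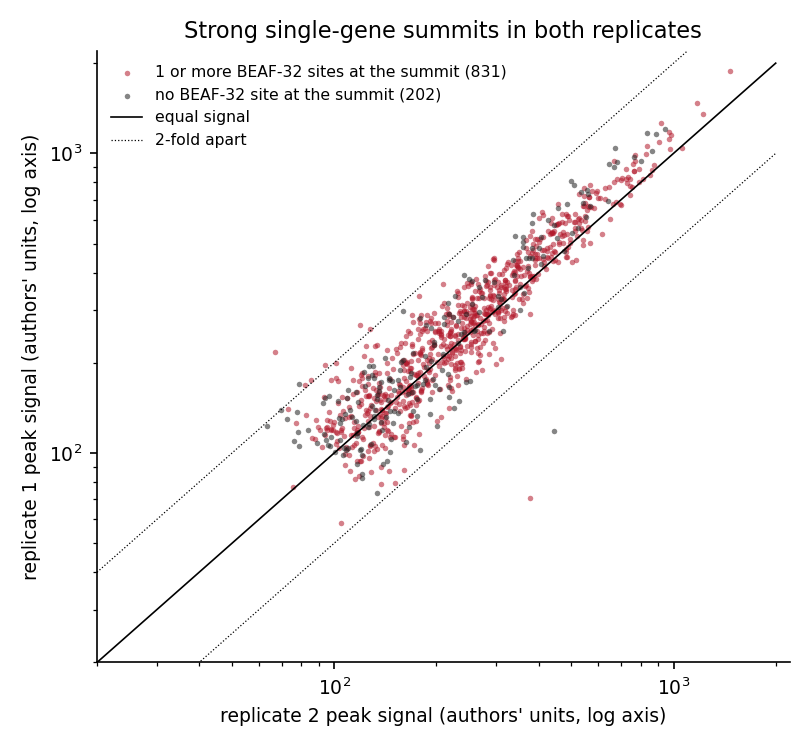
Peak signal of the 1033 strong single-gene summits in both replicates' thresholded lists, replicate 1 on the vertical and replicate 2 on the horizontal log axis in the authors' units, with red points for windows with CGATA and black for those without. Most points lie just above the line of equal signal, 1024 of 1033 lie within 2-fold of it, and the points far below it are PI31 and Atg16.

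The summits where the replicates differed most included the distal summits of PI31 and Atg16. The distal PI31 summit (a proteasome regulator) had 70.7 in replicate 1 and 376 in replicate 2, a log2 ratio of -2.41. Its value in replicate 2 is that of the wider entry which also holds the main PI31 summit 84 bp upstream of the TSS (391 in replicate 1 and 376 in replicate 2). In the replicate's ranked list, which holds all its entries, the distal PI31 summit had an entry of 169. The distal summit of Atg16, an autophagy protein, likewise had 118 in replicate 1 and shared the 443 of its neighbour in replicate 2, a log2 ratio of -1.91. Its entry in the ranked list of replicate 2 was 69.4, lower than the 118 of replicate 1, so the direction rests on the shared entry. CG16753 had 79.6 in replicate 1 and 151 in replicate 2 and a log2 ratio of -0.93. In the other direction, wgn, the TNF receptor Wengen, had 218 in replicate 1 and 66.9 in replicate 2, a log2 ratio of 1.70. Another PI31 summit followed at 1.17 and CG43192 at 1.11. These 6 were the extremes of the 1033.

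Only 1 thresholded list held 7 of the strong summits. eIF4G1, a translation initiation scaffold, was the strongest of them with a signal of 344 (191 in replicate 1 and no entry in either list of replicate 2). The proline dehydrogenase gene slgA had a signal of 312, with 154 in replicate 2 and an entry of 157 in the ranked list of replicate 1 that its thresholded list lacks. Bdbt, dikar and mdy were in the thresholded list of replicate 1 alone, and Crtc and tst in that of replicate 2 alone, with series-level signals between 201.8 and 263. The other replicate's ranked list held entries for Bdbt (172 in replicate 2 against 68.0 in replicate 1), dikar (52.2 in replicate 2), mdy (105 in replicate 2) and tst (101 in replicate 1), and none for Crtc. In all, 1038 of the 1040 strong summits were in both ranked lists, as were 1770 of the 1782 weak ones. The lowest thresholded value of any strong summit was the 22.1 of dikar in replicate 1.

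The threshold cut through a continuous range. Just inside it lay CG14907 (201.7), CG7878 (201.5), pyd (201.4), CG7945 (200.6) and CG5515 (200.5). Just outside lay nemy (199.99), Sf3b3 (199.6), CLS (199.6), CG8461 (199.4) and alph (199.2). In each replicate the values on both sides of the line overlapped: the inside genes ran from 83.5 to 130 in replicate 1 and the outside genes from 79.9 to 120. The alph summit had 114 in replicate 1 and 513 in replicate 2, where the overlapping thresholded entry is another one, since the nearest entry of replicate 2's ranked list had 83.0.

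The strongest summits stood at genes of varied function. RhoGAP93B had the highest signal at 3340 (1877 in replicate 1 and 1470 in replicate 2), with its summit at position 21097900 of chromosome 3R, 73 bp upstream of the TSS. It ranked 2 among all 5720 summits. CG11857 followed with 2649 (1476 in replicate 1 and 1174 in replicate 2). Next was mtSSB, the mitochondrial single-stranded DNA-binding protein, at 2574 (1349 in replicate 1 and 1219 in replicate 2), with 6 copies of CGATA in its window. These 3 summits lay 73, 85 and 43 bp upstream of their TSSs.

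They were followed by Pp2A-29B, the scaffold subunit of protein phosphatase 2A (2217), Gp150, a transmembrane glycoprotein of Notch signalling (2154), and eIF3c, a subunit of translation initiation factor 3 (2140). Then followed Capr, the RNA-binding protein Caprin (2116), Creld (2114), CG8613 (2108), Jwa (2049), CG14441 (2005), SMC1, a cohesin subunit (2004), Bka (1999) and Hacl (1903). The 20 strongest ended with CG30015 (1884), jagn, an endoplasmic reticulum protein (1851), Pym, which recycles exon junction complexes (1789), CG15160 (1767), mnb (1753) and bun, a TSC22 family protein (1749). Across these 20 the signal ran from 881 to 1877 in replicate 1 and from 768 to 1470 in replicate 2. All 20 summits lay upstream of the TSS, beside 86.2% of all strong summits. Of the 20, 19 were higher in replicate 1, as were most strong summits, Creld being the exception. CGATA was present in 15 of the 20 windows and the whole DREF site in 2, Creld and Pym. Of all strong windows 80.3% held CGATA and 31.8% the DREF site, and counts over 20 windows do not set these apart. The 5 without CGATA were eIF3c, Jwa, CG14441, CG30015 and mnb.

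Most genes had a single strong summit. Of the 997 genes, 958 had 1, 35 had 2 and 4 had 3, namely PI31, milt, BEAF-32 and Usp10, so a few summits share a gene. The BEAF-32 gene itself had summits of 621, 350 and 340, all within 1 wide peak of 1696 bp on chromosome 2R. The strongest of these lay 358 bp downstream of the nearest TSS and held 2 copies of CGATA, and the others held none. At milt, the mitochondrial kinesin adaptor Milton, summits of 642, 557 and 304 lay at 3 separate annotated TSSs. Among genes with 2, RpS7 had the strongest single summit, 1746, and a second of 530.

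The strong summits sat just upstream of the TSS. The median position was -45 bp (95% interval -48 to -40), against -14 bp (-20 to -6) for weak single-gene summits, and the median distance in either direction was 49 bp (45 to 53) against 95 bp (89 to 103). Upstream lay 896 of 1040 strong summits (86.2%, 83.9 to 88.1%) and 972 of 1782 weak summits (54.5%, 52.2 to 56.9%). The last 100 bp before the TSS held 701 strong summits (67.4%) and 500 weak ones (28.1%). In keeping with their position, 737 strong summits (70.9%) and 605 weak summits (34.0%) lay outside protein-coding gene bodies. The regions share positions along genes and were not treated as replicates, so no p is given for any of these differences.

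**Figure D2:**
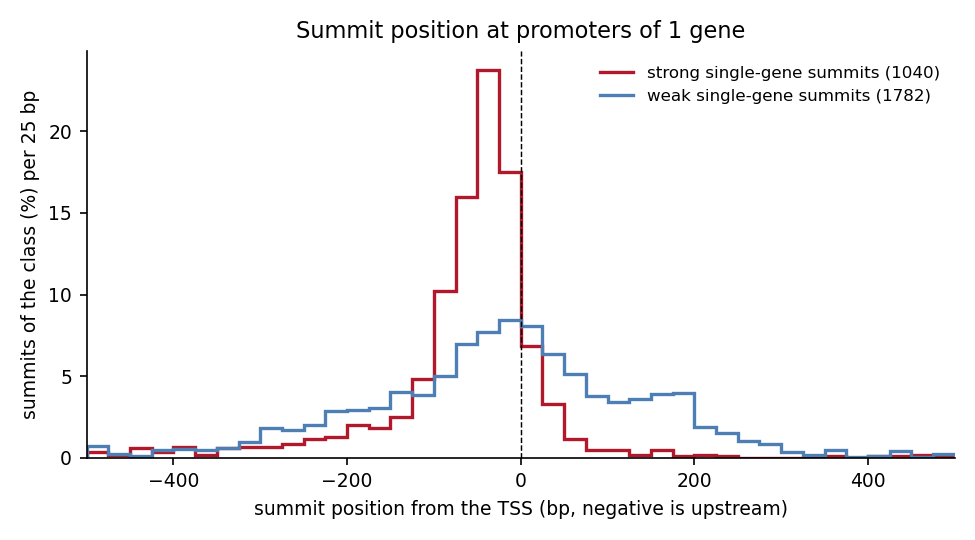
Position of the summit from the nearest TSS of its gene in bins of 25 bp, as a percentage of the class, for 1040 strong (red) and 1782 weak (blue) single-gene summits; the dashed line is the TSS. Strong summits peak in the bin from -50 to -25 bp, which holds 23.8% of them, while weak summits spread to both sides.

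The farthest strong summits were those of CG31493 (495 bp upstream, signal 729), Sema1a, a transmembrane semaphorin (491 bp, 282), and CG43796 (490 bp, 232). Of the 1040 strong summits, 88 (8.46%) and of the weak 352 (19.8%) were more than 200 bp away. An RNA gene also had a TSS within 500 bp at 71 strong summits (6.83%) and 97 weak ones (5.44%). The TSS of the next protein-coding gene lay somewhat nearer to strong summits, at a median of 2060 bp (1951 to 2212) against 2376 bp (2231 to 2537) for weak ones. Such a TSS lay within 1000 bp at 20.6% of strong and 18.0% of weak summits, and another summit within 1000 bp at 34.9% of strong and 36.3% of weak summits. The peaks of strong summits had a median width of 408.5 bp (396 to 416), while at weak summits the lower quartile, the median and the upper quartile were all 544 bp, a value shared by many entries, so the widths are not comparable. Of the peaks, 34 strong (3.27%) and 385 weak peaks (21.6%) ran into a peak of higher signal.

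CGATA was the commonest of the 21 sites searched at strong summits. Within 50 bp of the summit, 835 of 1040 strong windows held it on either strand (80.3%, 77.8 to 82.6%), against 479 of 1782 weak windows (26.9%, 24.9 to 29.0%). Windows of the same size 500 bp to either side of the strong summits held it in 11.9% of cases (10.5 to 13.3%, 2080 windows). Summits at the TSSs of 2 genes were intermediate, with 48.5% (46.1 to 50.9%). The difference of 53.4 percentage points between strong and weak windows had a 95% interval of 50.1 to 56.5 points, for counting error only.

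Several copies were the rule. At least 2 copies that did not overlap were present in 582 strong windows (56.0%) and 156 weak windows (8.75%), and at least 3 in 225 strong (21.6%) and 31 weak windows (1.74%). Of the strong windows, 11 held 5 or more, among them those of mtSSB, Hsp110 and the ribosomal protein gene RpS2, and 2 held 6, mtSSB and Ddr, a discoidin domain receptor whose signal was only 248. The copies lay close to the summit: the nearest was a median of 10 bp away in strong windows and 16 bp away in weak ones, and 81.9% of strong against 63.3% of weak windows with a copy had it within 25 bp.

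The DREF site TATCGATA was found in 331 strong windows (31.8%, 29.1 to 34.7%) and 85 weak windows (4.77%, 3.87 to 5.86%). It was found in 14.6% of windows at summits of 2 genes and in 0.288% of windows 500 bp from the strong summits. CGATA without the full DREF site was present in 504 strong windows (48.5%) and 394 weak windows (22.1%). Every letter of TATCGATA had to match, so windows with CGATA in a DREF site that lacks an end letter count here. The shorter ATCGAT, from the middle of the DREF site, was present in 633 strong windows (60.9%). The split therefore does not separate BEAF-32 sites from incomplete DREF sites. Ohler motif 7, another core promoter motif of housekeeping genes, was present in 12.2% of strong windows (10.4 to 14.3%) and 4.26% of weak windows (3.42 to 5.31%). It was found in 1.15% of windows 500 bp from the strong summits.

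M1BP sites differed little between the classes. GGTCACAC was present in 53 strong windows (5.10%, 3.92 to 6.61%) and 67 weak windows (3.76%, 2.97 to 4.75%), a difference of 1.34 points whose interval, -0.20 to 3.04, holds 0. Its sign turned without replicate 2, while under 3 other settings the interval lay above 0. Both shares were above the 0.481% found 500 bp from the strong summits. Of the 53 strong windows with GGTCACAC, 50 also held CGATA and 17 the full DREF site, beside 80.3% and 31.8% of all strong windows. The E-box CAGCTG was present in 8.56% of strong windows (7.01 to 10.4%) and 8.36% of weak windows (7.16 to 9.74%), and Ohler motif 6 was rare in both (1.06% and 0.786%).

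GAGA sites ran the other way. GAGAGAG was present in 9 strong windows (0.865%, 0.456 to 1.64%) and 101 weak windows (5.67%, 4.69 to 6.84%), against 1.73% of windows 500 bp from the strong summits. With so few windows the share was 0.483% without replicate 1 and 1.51% at a threshold of 150. The Ets site CCGGAA was likewise less frequent at strong summits (1.63%, 1.02 to 2.60%) than at weak ones (3.82%, 3.02 to 4.81%).

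Sites of Hox proteins and their partners were infrequent at these summits. The homeodomain core TAATTA was present in 5.67% of strong windows (4.42 to 7.25%), 3.93% of weak windows (3.12 to 4.93%) and 5.87% of windows 500 bp from the strong summits. TAATGA was present in 3.46% of strong and 3.42% of weak windows. Of the sites of a Hox protein with Exd, TGATTAAT was found in 2 strong (0.192%) and 9 weak windows (0.505%). TGATTTAT was found in 9 strong (0.865%) and 15 weak windows (0.842%). Each lay in 0.625% of windows 500 bp from the strong summits. The Hth site TGACAG was present in 4.23% of strong, 3.70% of weak and 2.50% of the windows 500 bp from the strong summits. No match says only that these letters are not in these windows. The 6 sites of other factors that were also searched (CTCF AGATGGCG and AGGTGGCG, forkhead TGTTTAC, Zelda CAGGTA, the mesodermal E-box CACATG and CREB TGACGTCA) each lay in 3.27% of strong windows or fewer.

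**Figure D3:**
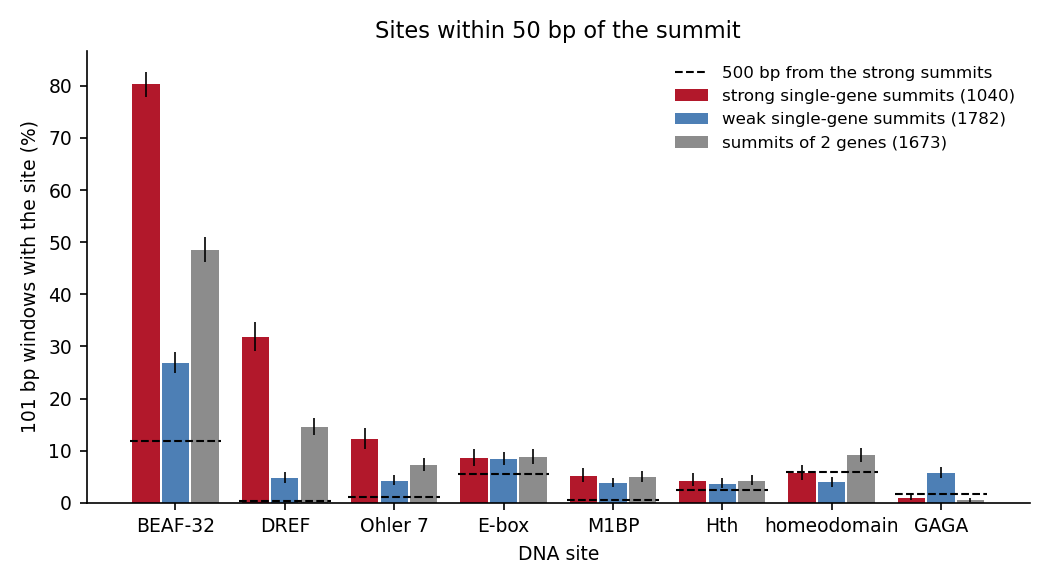
Share of 101 bp windows at the summit that hold each site, with Wilson 95% intervals, for strong single-gene summits (red), weak single-gene summits (blue) and summits of 2 genes (grey); dashed lines give the share 500 bp from the strong summits. BEAF-32 sites reach 80.3% and DREF sites 31.8% of strong windows, and GAGA sites are at 0.865% of strong and 5.67% of weak windows.

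A search with no site given in advance, in the same strong and weak windows, led to the same letters. It counts the same sequences again and is not an independent second result. Among all 2080 distinct sequences of 6 bases, counted with their reverse complements, the 3 with the greatest excess in strong over weak windows were TATCGA (66.6% of strong and 14.1% of weak windows), ATCGAT (60.9% and 11.2%) and CGATAG (54.6% and 9.65%). In place 5 stood ACTATC (32.2% and 4.43%), which, like ATCGAT, does not hold CGATA whole. Of the strong windows without CGATA, 3.41% held ACTATC and 8.29% held ATCGAT. The greatest deficits were AGAGCG (2.98% of strong and 11.0% of weak windows), GAGAGC (2.50% and 9.88%) and GAGAGA (2.02% and 9.26%).

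**Figure D4:**
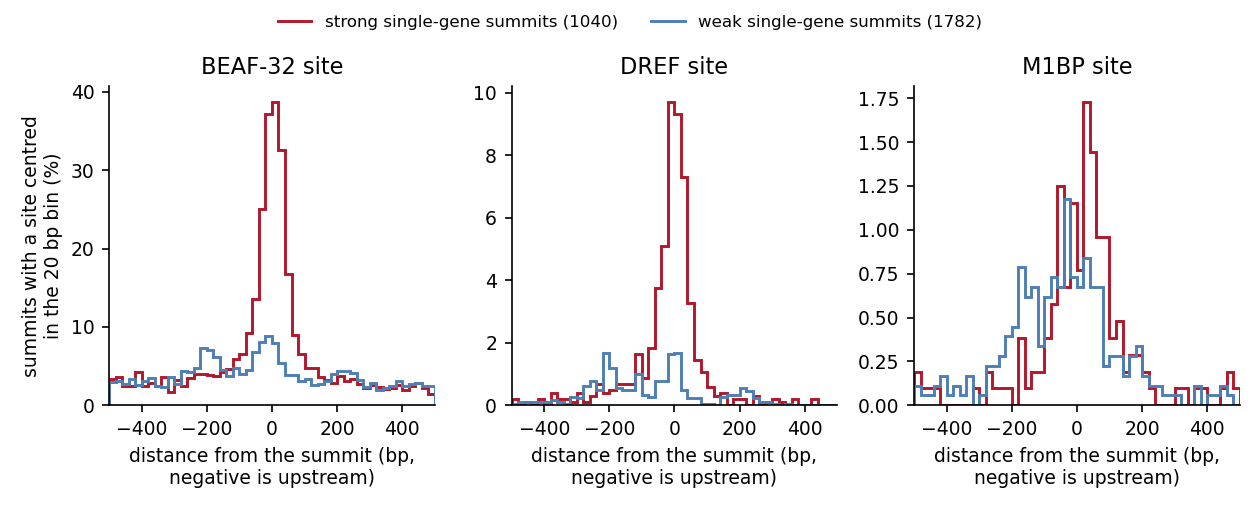
Percentage of summits with a site centred in each bin of 20 bp, by distance from the summit along the gene's strand, for BEAF-32, DREF and M1BP sites at strong (red) and weak (blue) single-gene summits; the vertical axes differ. BEAF-32 sites reach 38.8% of strong summits in the bin from 0 to 20 bp. The weak summits show a second rise, to 7.35%, in the bin from -220 to -200 bp. A smaller one, to 4.38%, lies in the bin from 200 to 220 bp. Some weak peaks run into a peak of higher signal, and the source of these rises was not tested.

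The share with CGATA increased with signal across the single-gene summits, including below the threshold that chose the strong ones. In 10 bins of nearly equal size, from the weakest of the 2822 summits to the strongest, it was 12.7, 14.5, 18.8, 23.0, 33.0, 45.7, 69.1, 76.2, 89.0 and 83.4%. The DREF site was at 0% in the weakest bin, 38.3% in bin 9 and 32.5% in the strongest, and the M1BP site stayed between 1.77 and 6.38%. The share of summits upstream of the TSS moved with them, at 42.4% in the weakest and 90.8% in the strongest bin. The share in both replicates' lists was 51.6% in the weakest bin, 13.1% in bin 2 and 100% in bins 9 and 10. Base composition moved too, with a median GC of 45.5% in the weakest and 38.6% in the strongest bin. Site shares within limits of position, presence in both lists and GC follow.

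**Figure D5:**
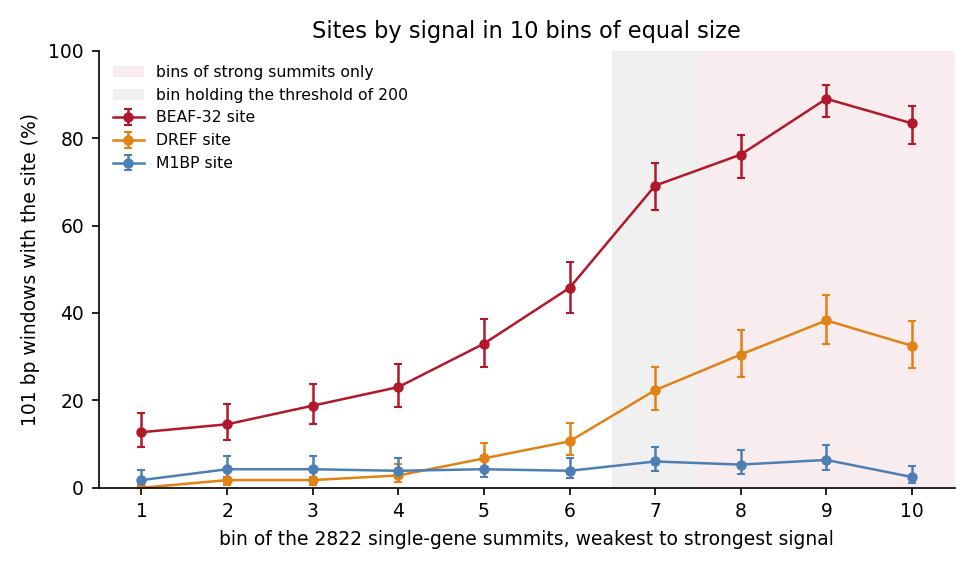
Percentage of 101 bp windows with a BEAF-32, DREF or M1BP site, with Wilson 95% intervals, in 10 bins of the 2822 single-gene summits from the weakest to the strongest signal; grey shading marks the bin that holds the threshold of 200 and red shading the bins of strong summits only. The BEAF-32 share is 12.7% in the weakest bin, 89.0% in bin 9 and 83.4% in the strongest.

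The difference in CGATA was present within each of these strata. Among summits 1 to 100 bp upstream of the TSS, 634 of 701 strong windows (90.4%) and 214 of 500 weak windows (42.8%) held it. In windows of under 40% GC the shares were 74.0% of 526 strong and 36.1% of 499 weak windows, and at 40% GC or more 86.8% of 514 strong and 23.3% of 1283 weak windows. Off chromosome X they were 79.1% of strong and 25.7% of weak windows. Among summits in both replicates' lists the difference was 45.7 points (41.5 to 49.7). At some weak summits the overlapping entry was that of a stronger neighbour, so this stratum is not limited to weak peaks that repeat.

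Within the strong summits the relation to signal was not a steady one. In 5 bins of 208 summits from the strongest to the weakest, CGATA was present in 80.8, 88.0, 89.4, 73.1 and 70.2% of windows and the DREF site in 25.5, 42.8, 40.4, 27.4 and 23.1%. Both were therefore highest in bins 2 and 3. The M1BP site was present in 1.44% of the strongest bin and between 5.29 and 6.25% of the others. By number of copies the order was plainer. The median signal of summits with no, 1, 2, 3 and 4 or more copies of CGATA was 346 (324 to 391), 396 (370 to 447), 506 (466 to 540), 558 (508 to 625) and 672 (487 to 830), in that order of copies. Neighbouring medians differed beyond their intervals only between 1 and 2 copies.

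The 205 strong summits without CGATA differed from the rest in composition and position. Their windows were poorer in GC, with a median of 33.7% (31.7 to 36.6%) against 40.6% in those with CGATA, whether or not the DREF site was complete. They lay farther from the TSS, at a median of -104 bp (-123 to -88). Strong summits with the DREF site lay at -34 bp (-39 to -31). Those with CGATA but no full DREF site lay at -43 bp (-47 to -38). TATAAA was found in 21.0% of the 205 (43 windows) and TAATTA in 10.7% (22 windows, 7.19 to 15.7%). All strong windows, these included, held them in 12.6% and 5.67% of cases. Both sites consist of A and T only, and windows at summits of 2 genes, also poor in GC, held them in 16.9% and 9.09% of cases. Only 3 of the 205 held GGTCACAC, and 202 strong summits (19.4%) thus held neither CGATA nor GGTCACAC. In both thresholded lists were 202 of the 205 (98.5%, 95.8 to 99.5%). The strong set as a whole had a median GC of 39.6% in the window, against 45.5% for weak summits, 37.6% for summits of 2 genes and 44.6% in windows 500 bp from the strong summits.

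Promoters taken from the annotation were also counted, read from 250 bp before to 50 bp after a TSS. For genes with a summit they overlap many of the windows already counted. Their strong and weak shares are therefore not an independent second result. CGATA was present in 912 of the 997 promoters of genes with a strong summit (91.5%, 89.6 to 93.1%), in 49.6% of 1347 promoters of genes with weak single-gene summits only, in 35.2% of 8906 promoters of genes with no summit within 500 bp, and in 47.3% of all 13968. The DREF site was present in 399 of the 997 promoters with a strong summit (95% interval 37.0 to 43.1%), and in 9.80%, 1.81% and 9.36% of the other sets in the same order. The M1BP site was present in 12.1% of promoters with a strong summit, 12.3% with weak ones only, 4.35% with none and 7.69% of all. GAGAGAG was present in 2.51% of promoters with a strong summit, 16.1% with weak ones only, 6.32% with none and 5.86% of all. Ohler motif 7 was present in 23.3%, 9.43%, 4.37% and 9.28%, CAGCTG in 17.4%, 23.7%, 14.2% and 17.6%, and CCGGAA in 5.02%, 7.05%, 7.07% and 6.77% of the same sets. For the homeodomain core TAATTA the shares were 22.4%, 18.3%, 19.3% and 20.4%, and for TAATGA 14.1%, 14.6%, 18.6% and 17.3%. Promoters with a strong or weak summit are anchored at the TSS nearest that summit, and the others at the gene's first TSS.

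Core promoter elements at the TSS itself were counted on the gene's strand. The initiator TCAGT lay within 10 bp of the TSS at 36 strong summits (3.46%, 2.51 to 4.75%), at 267 weak summits (95% interval 13.4 to 16.7%) and at 12.2% of all protein-coding genes. TATAAA lay 45 to 15 bp upstream of the TSS at 24 strong summits (2.31%) and 39 weak summits (2.19%), and at 8.81% of all genes. For both elements the strong and weak values count summits, at the TSS nearest each. Those for all genes count genes, at their first TSS, so the shares differ in unit and anchor. Anywhere in the promoter, TCAGT was present in 38.7% of those with a strong summit, 50.6% with weak ones only and 51.5% of all, and TATAAA in 46.4%, 37.0% and 45.8%.

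Genes with a strong summit were longer than the typical gene and mostly had introns. Their median length was 3598 bp (3245 to 3877), against 4243 bp (3913 to 4726) for the 1581 genes with a weak single-gene summit, some of which also have a strong one, and 2164.5 bp for all 13968 protein-coding genes. No intron was annotated in 62 (6.22%) of them, in 5.76% of genes with weak summits and in 15.3% of all genes. Only 252 (25.3%) went by a CG number instead of a name, against 26.4% of genes with weak summits and 43.7% of all. A single annotated TSS was given for 60.3% of them, 54.5% of genes with weak summits and 73.5% of all.

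Chromosome X and the fourth chromosome held more of these genes in relation to their number of genes. The rule left out summits at shared promoters, so an arm with many of these had fewer chances. A strong summit was found at 227 of the 2196 genes on X (10.3%, 9.13 to 11.7%) and at 12 of the 80 genes on chromosome 4 (95% interval 8.79 to 24.4%), against 7.14% of all protein-coding genes. The autosomal arms lay between 5.99% (3R) and 6.90% (3L), with 6.40% on 2L and 6.80% on 2R, and their intervals overlapped one another. None of the 23 genes on Y had one. The signal on and off X did not differ beyond the intervals, with a median on X of 458 (406 to 499) against 466 (445 to 491) off X. CGATA was present in 84.2% of windows on X (79.0 to 88.2%) and 79.1% off X (76.2 to 81.8%). The labels do not give the sex of the embryos, so the mean number of X copies is unknown. On chromosome 4 the strongest was pan, the TCF factor of Wnt signalling, at 674, and 11 of the 12 windows held CGATA.

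Gene lists were compared by the share of their genes with a strong summit, beside the 7.14% of all 13968 genes; the rule left out summits that are also within 500 bp of a second gene's TSS, so a list with many shared promoters had fewer chances. Of 92 cytosolic ribosomal protein genes, 21 had one (22.8%, 15.4 to 32.4%), with a median signal of 533 for the strongest summit of each, against 474 over all 997 genes. A further 12 had weak single-gene summits only, 27 had summits at shared promoters only and 32 had none within 500 bp. Site counts in this and the later lists stand beside those of all 997 genes. The window of their strongest summit held CGATA at 815, the DREF site at 327 and the M1BP site at 53. A list in which most windows held CGATA was therefore no exception. Among the cytosolic ribosomal protein genes CGATA was present in 15 of the 21 windows, the DREF site in 7 and the M1BP site in 1, that of RpS23. RpS7 led with 1746 (969 in replicate 1 and 764 in replicate 2), followed by RpL26 with 1689 (1045 in replicate 1 and 672 in replicate 2). RpS2 had 1613 (888 in replicate 1 and 725 in replicate 2). RpS7 and RpL26 had no CGATA in the window, RpS2 had 5 copies, and RpL26 was one of the few whose summit lay downstream of the TSS, by 77 bp. The others ran from RpS10b (1211) and RpS24 (1113) down to RpL8 (238) and RpL30 (227).

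Translation factor genes had a strong summit at 9 of 54 (16.7%, 9.02 to 28.7%). Beside eIF3c (1204 in replicate 1 and 941 in replicate 2) stood eIF3f1, another subunit of the same factor, at 1233 (657 in replicate 1 and 585 in replicate 2), and the elongation factor gene eEF2 at 965 (505 in replicate 1 and 460 in replicate 2). Windows of 8 of the 9 held CGATA and 5 the DREF site, eIF3c being the exception for CGATA. Mitochondrial ribosomal proteins had a strong summit at 6 of 75 genes (95% interval 3.72 to 16.4%), all 6 with CGATA, led by mRpL4 (1568), mRpL10 (908) and tko (728). In this list 39 genes had summits at shared promoters only. Of the tRNA synthetases, 2 of 33 had one, AspRS-m (624) and AlaRS (353).

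DNA replication genes, known targets of DREF, had a strong summit at 7 of 32 (21.9%, 11.0 to 38.8%). All 7 windows held CGATA and 3 held the full DREF site, against 80.3% and 31.8% of all strong windows. Counts this small do not set the list apart in its sites. The 3 included PolA1, the catalytic subunit of DNA polymerase alpha, with 1227 (662 in replicate 1 and 563 in replicate 2). PCNA, the sliding clamp, was another with 431 (256 in replicate 1 and 182 in replicate 2). RfC3, of the clamp loader, had 463 (201 in replicate 1 and 265 in replicate 2) and CGATA without the DREF site. The median signal of the 7, 287, was under the 474 of all 997 genes.

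Chaperone, proteasome, autophagy and respiratory chain genes had strong summits at shares whose intervals hold the 7.14% of all genes. Of 36 chaperone genes 5 had a strong summit (13.9%, 6.08 to 28.7%). Hsp110, printed above, led with 1703 (847 in replicate 1 and 855 in replicate 2), ahead of DnaJ-1, an Hsp40 co-chaperone, with 1554 (921 in replicate 1 and 646 in replicate 2), and of Hsp60A, the mitochondrial chaperonin, with 612 (307 in replicate 1 and 303 in replicate 2). Only 2 of the 5 windows held CGATA. Of 48 proteasome genes 6 had a strong summit (12.5%, 5.86 to 24.7%), with CGATA in 5 windows and the DREF site in none. The strongest were Rpn10 (1302), Rpn12 (566) and Rpt1 (491). Autophagy and vesicle sorting genes had a strong summit at 10 of 78 (12.8%, 7.12 to 22.0%), led by the small GTPase genes Rab35 (1130) and Rab11 (966) and by Atg16 (1022 at its main summit). In the respiratory chain list 8 of 86 genes had one (9.30%, 4.79 to 17.3%), led by UQCR-14 (1046), ND-B14.5A (718) and ND-15 (458).

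Genes of transcription and chromatin gave mixed counts. In the list of RNA polymerase II, Mediator and TBP-associated factors, 5 of 63 genes had a strong summit (7.94%), among them Taf9 (569), Tbp, the TATA-binding protein (323), and Taf8 (252). In the splicing list 1 of 37 did, Prp39 (447), and 24 of the 37 had summits at shared promoters only. Of 16 insulator and promoter-binding factor genes 4 had one: mod(mdg4) at 685, BEAF-32 at 621, dwg, which encodes the insulator protein Zw5, at 497, and CTCF at 452. All 4 windows held CGATA. Polycomb and trithorax group genes had a strong summit at 5 of 31 (16.1%, 7.09 to 32.6%): kis (1216), the demethylase gene Utx (672), Scm (644), Pc (473) and ph-p (226), all with CGATA. The intervals of these lists are wide and hold the 7.14% of all genes, apart from that of the insulator and promoter-binding factors (10.2 to 49.5%).

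Developmental regulators had strong summits at shares whose intervals hold the 7.14% of all genes. None of the 8 Hox genes had one, Scr itself included, and none of 6 Hox cofactor genes; 5 of the Hox genes and all 6 cofactor genes had weak single-gene summits only. With lists this short a count of 0 has a Wilson upper limit of 32.4% for the Hox genes and 39.0% for the cofactors. Of 39 early patterning genes 2 had one (5.13%, 1.42 to 16.9%), the nuclear receptor gene ftz-f1 at 488 (235 in replicate 1 and 253 in replicate 2) and the anterior determinant bcd at 246 (132 in replicate 1 and 113 in replicate 2). Of 31 signalling genes 3 did (9.68%, 3.35 to 24.9%). They were pan at 674 (292 in replicate 1 and 377 in replicate 2), the BMP receptor gene tkv at 604 (295 in replicate 1 and 304 in replicate 2) and the Notch pathway factor Su(H) at 514 (298 in replicate 1 and 245 in replicate 2). All 3 held CGATA. Of 47 tissue regulators 4 had a strong summit (8.51%, 3.36 to 19.9%): the muscle factor Mef2 at 531, the cardiac factor tin at 498, the cell cycle factor E2f1 at 345 and the nuclear receptor gene svp at 294. Only the Mef2 window held CGATA, and it was also the only one of the 4 with the M1BP site.

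Lists of genes of differentiated cells had none. No strong summit was found at the 70 cuticle protein genes (Wilson upper limit 5.20%), the 179 chemosensory receptor genes (2.10%), the 23 Osiris genes of the cuticle (14.3%) or the 18 structural muscle genes (17.6%). None of the cuticle protein or Osiris genes had any summit within 500 bp of a TSS, and 172 of the chemosensory receptor genes and 16 of the muscle genes had none. The 17 genes of mitochondrial import and cristae had no strong summit either, with 6 at shared promoters only. The lists were chosen with results of these data known, so their counts describe the set and are no independent support for any pattern in it.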

How the data were processed

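ChIP-seq peak lists on the dm6 assembly were used as deposited, for 2 replicates of 1 group. Per the submitters' file notes, alignments of both replicates, with control alignments, went into the lists for the series, and those of 1 replicate into its own lists; thresholding by the irreproducible discovery rate took 1 further input whose content they do not describe. Neither labels nor notes name the aligner, peak caller, versions or filters. The signal of a peak is the value the authors deposited per peak, on a scale that is not stated; the score, also deposited by the authors, was capped at 1000 and was 1000 for all 1040 summits. No file gives the sequencing depth, and nothing that rests on it was computed.

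From these, summits (start plus deposited offset) on the arms were assigned with Python 3.11.15, numpy 2.4.6, pandas 2.3.3 and scipy 1.17.1 to TSSs of the Ensembl annotation BDGP6.54, release 115. All deposited peak ends fit the arm lengths of the release 6 genome, and coordinates count from 1. A replicate's value at a summit is the signal of the entry of its thresholded list that overlaps the peak by at least 1 bp and has the nearest summit. Windows reached 50 bp to each side of a summit, and sites on either strand were counted. Shares have Wilson and medians order-statistic 95% intervals, for counting error only, and differences of shares have Newcombe intervals. No test was made: the rule used the signal, there is 1 group, and regions are not replicates. Printed windows were taken from arms other than 2R.

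The named genes are the 20 strongest; 5 on each side of the threshold; the 3 strongest of each list; the members of the developmental lists; the extremes of the replicate ratio and of distance; the genes with most summits; and the strongest with each printed site. The summits in 1 replicate's list only, the ribosomal protein genes after the third, the genes with 6 CGATA copies, and Pc, ph-p and CTCF were named after their values were seen. The set and the gene lists were chosen with earlier results of these data known. A few symbols of the lists were not found in the annotation. The alternatives tried are given at the end.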

Additional observations from a re-analysis of the deposited data

How the results depend on the processing

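In all, 149 values were computed under alternative settings for 14 results, and 108 of them stayed within the 95% interval of the value reported, or for the number of strong summits, 789 to 1312 against 1040, within 1.5 times of it; every value of the median distance from the TSS was among them. A signal threshold of 150 or 300 gave shares of strong summits of 44.5% and 28.0%, shares in both replicates' lists of 97.9% and 99.7%, and CGATA shares of 76.7% and 83.7%; at 300 the upstream share was 88.3% and the TATCGATA share 34.7%. TSS windows of 250 and 1000 bp gave strong shares of 41.0% and 34.7%, leaving out entries that overlap a stronger one gave 41.9%, and counting genes of every biotype gave an upstream share of 83.0%. Windows of 25 and 100 bp in place of 50 bp, which are smaller and larger by construction, gave 63.3% and 89.3% for CGATA, 19.6% and 38.3% for TATCGATA, 2.21% and 9.42% for GGTCACAC, 4.42% and 15.3% for CAGCTG, 0.385% and 2.12% for GAGAGAG, and a median GC of 41.2% and 37.3%. The strong minus weak difference was then 47.1 and 49.1 points for CGATA and 16.2 and 32.0 points for TATCGATA.

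The same share of strongest summits was also chosen from 1 replicate's list alone (without replicate 1 or without replicate 2). This gave upstream shares of 87.3 to 88.5%, CGATA shares of 82.1 to 83.3% and TATCGATA shares of 33.6 to 35.3%. Shares in both lists were 99.8 to 99.9%. Each summit is then in its own replicate's list by construction, so these shares count presence in the other list only. The strong minus weak difference was 44.97 to 47.3 points for CGATA and 24.0 to 27.8 points for TATCGATA. For GGTCACAC it was -0.0836 to 1.01 points, so the small excess was reversed without replicate 2; the cause was not tested. Its interval lay above 0 with a TSS window of 1000 bp (0.05 to 3.44), genes of every biotype (0.33 to 3.61) and sites within 100 bp (0.51 to 4.79). The GAGAGAG share was 0.483% without replicate 1 and 1.51% at a threshold of 150. Alternatives for CGATA were chosen after seeing the data. Its difference was 37.9 points under 40% GC, 63.5 points at 40% GC or more, 47.6 points for summits 1 to 100 bp upstream and 45.7 points for summits in both replicates' lists. No paired analysis was possible because there is 1 group. The unknown depth and the missing comparison without the fusion protein limit every signal given.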
